A study of Mus musculus with 16 samples.

Results

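Chaperones are proteins that help other proteins fold, hold them in solution or refold them after stress, and 80 of the 16593 gene symbols on these arrays belong to their families. They were taken by annotated symbol: the symbols that start with Hsp (other than Hspg2), Dnaja, Dnajb, Dnajc, Pdia or Cct with a number, and Tcp1, Calr and Canx. These 80 genes have 110 of the 25697 probes in the deposited table, and 84 of their probes, from 65 genes, lay above background, against 15566 probes tested in all. The study measured gene expression with 16 Illumina mouse bead arrays in hematopoietic stem cell (HSC) fractions of C57Bl/6 mice, sorted from cells without lineage markers that carry c-Kit and Sca-1. It has 4 groups of 4 arrays: CD70TG mice (IFNgamma-/-xCD70TG) and control mice (IFNgamma-/-), each with a fraction labelled CD34- (long-term HSC) and one labelled CD34+ (short-term HSC). All mice lacked IFNgamma. A pool of 2 mice gave the RNA of an array, and the 4 pools of a group were independent. CD70, encoded by the transgene, binds CD27, which belongs to the TNF receptor family. The sources used here name neither the promoter that drives the transgene nor the age of the mice, and the protocol in the labels gives CD34-Flt3- as the gate of long-term and short-term HSC alike.

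Cytosolic HSP70 and HSP90 proteins bind and release client proteins in cycles driven by ATP, and J-domain proteins of the DNAJA, DNAJB and DNAJC families bring clients to HSP70 and start its ATP hydrolysis. The TRiC/CCT chaperonin, a double ring of related subunits, encloses actin, tubulin and other clients, while HSP60 and HSP10 (Hspd1 and Hspe1) form the chaperonin of mitochondria. In the endoplasmic reticulum (ER), BiP (Hspa5), GRP94 (Hsp90b1), calreticulin, calnexin and the protein disulfide isomerases fold secreted and membrane proteins. Heat shock factor 1 raises many cytosolic chaperones through heat shock elements, and the unfolded protein response raises ER chaperones through ER stress elements. In HSC, a low rate of protein synthesis and tight control of protein quality are known features.

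Promoters of 5 of these genes are printed because they hold the letters of the control elements named above. The ER stress element, searched on both strands as CCAAT, 9 bases of any kind and CCACG in RefSeq promoters of build GRCm38.p6 (250 bases before to 50 bases after each start), was in 6 of the 67 chaperone genes with a promoter (8.96%), against 37 of all 27025 genes (0.137%). The 6 are Calr, Canx, Dnajc3, Hsp90b1, Hspa5 and Pdia6. Hspa5 and Hsp90b1 are shown because they differed between genotypes, and Calr and Dnajc3 because they hold the same element and did not pass. Hsp90b1 holds it at 2 places. Each line gives the 250 bases before the start, 5′ to 3′ on the gene's strand, with the CCAAT and CCACG parts of the element, or their reverse complements ATTGG and CGTGG, in capitals. Hspa5 is at chr2:34771840-34772089 (+), Hsp90b1 at chr10:86705445-86705694 (-), Calr at chr8:84846932-84847181 (-) and Dnajc3 at chr14:118937682-118937931 (+).
Hspa5: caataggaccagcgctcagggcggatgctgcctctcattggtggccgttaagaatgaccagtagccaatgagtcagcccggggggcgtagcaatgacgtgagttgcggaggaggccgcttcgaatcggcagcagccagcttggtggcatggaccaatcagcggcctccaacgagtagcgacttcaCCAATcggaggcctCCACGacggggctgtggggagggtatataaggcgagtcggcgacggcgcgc
Hsp90b1: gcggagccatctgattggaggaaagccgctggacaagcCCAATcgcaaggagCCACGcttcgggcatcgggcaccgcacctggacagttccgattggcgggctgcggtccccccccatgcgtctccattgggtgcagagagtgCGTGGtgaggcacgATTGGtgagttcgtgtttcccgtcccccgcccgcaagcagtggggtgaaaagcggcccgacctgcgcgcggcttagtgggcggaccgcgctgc
Calr: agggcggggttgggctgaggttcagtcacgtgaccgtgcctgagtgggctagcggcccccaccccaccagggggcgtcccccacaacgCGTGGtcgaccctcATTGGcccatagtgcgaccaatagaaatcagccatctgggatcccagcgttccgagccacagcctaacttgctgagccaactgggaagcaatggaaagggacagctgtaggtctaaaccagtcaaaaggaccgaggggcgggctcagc
Dnajc3: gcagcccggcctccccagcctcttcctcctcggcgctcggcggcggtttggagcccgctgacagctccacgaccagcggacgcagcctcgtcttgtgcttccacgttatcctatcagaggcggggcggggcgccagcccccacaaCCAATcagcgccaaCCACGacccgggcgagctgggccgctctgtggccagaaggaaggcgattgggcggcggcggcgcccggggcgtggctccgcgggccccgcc
The heat shock element GAANNTTC, which reads the same on both strands, was in 15 of the 67 promoters (22.4%) against 9.04% of all, and its tail-to-tail form TTCNNGAA was in 8 of 67 (11.9%) against 9.6% of all. Hspe1 (chr1:55087898-55088147, +) is printed because it holds both forms side by side, in capitals, with overlapping letters, and because its gene lies head to head with Hspd1, their annotated spans overlapping by 96 bases.
Hspe1: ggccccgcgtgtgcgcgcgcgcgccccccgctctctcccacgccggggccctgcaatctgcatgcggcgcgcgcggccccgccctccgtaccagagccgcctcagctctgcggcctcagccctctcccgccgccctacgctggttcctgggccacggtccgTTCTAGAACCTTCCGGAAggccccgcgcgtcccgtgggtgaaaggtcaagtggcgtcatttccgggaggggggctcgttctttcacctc
A match in letters is a description of the window, and binding was not measured.

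Array-wide features bear on what follows. Array medians lay between 6.427 and 6.531 on the deposited log2-like scale. No source used here states its base, so that 1 unit means a doubling for base 2 alone, and changes near background are understated. Within groups, pairs of arrays had r = 0.986 to 0.996 over all probes. Pairs of probes for 1 gene disagreed in a way that varied between arrays, and a first principal component took up 52.1% of that variance over 1834 genes with 2 probes above background, none of them chaperone genes. An array's score on it, called the probe discordance index, was 0.70 ± 0.64 in CD70TG CD34- against -1.18 ± 0.35 in control CD34-, while it averaged 0.90 ± 0.39 in CD70TG CD34+ and -0.42 ± 0.70 in control CD34+ arrays (SD, n = 4 each). In it, CD70TG CD34- replicate 2 (-0.23) lay below the other arrays of its group (0.78 to 1.18), and control CD34+ replicate 4 (0.58) above the other arrays of its own (-0.92 to -0.44). For the genes described, genotype differences that passed are therefore also given from a fit that includes the index. Tests are limma's on 4 group means over all 16 arrays, with Benjamini-Hochberg adjustment over the 15566 probes and a threshold of 0.05, errors of differences are SE with n = 4 arrays per group, and the spread behind a p-value is that between pools of mice. Fewer cells of a type and less RNA per cell cannot be told apart in such pooled material.

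In the CD34- fraction, more chaperone probes rose than fell in CD70TG cells, led by cytosolic HSP90, BiP and chaperonin subunits. Of 84 probes, 22 rose, 5 fell and 57 did not pass, which is 32.1% called against 25.9% of all tested probes. By direction, 15.4% of all tested probes were called higher and 10.6% lower. The median difference was 0.10 over the chaperone probes and 0.02 over all tested probes. With the brightest probe of a gene alone, 21 of 65 genes were called (32.3%, against 27.3% of all). The plot of differences by role shows where in the families these probes lie.

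**Figure D1:**
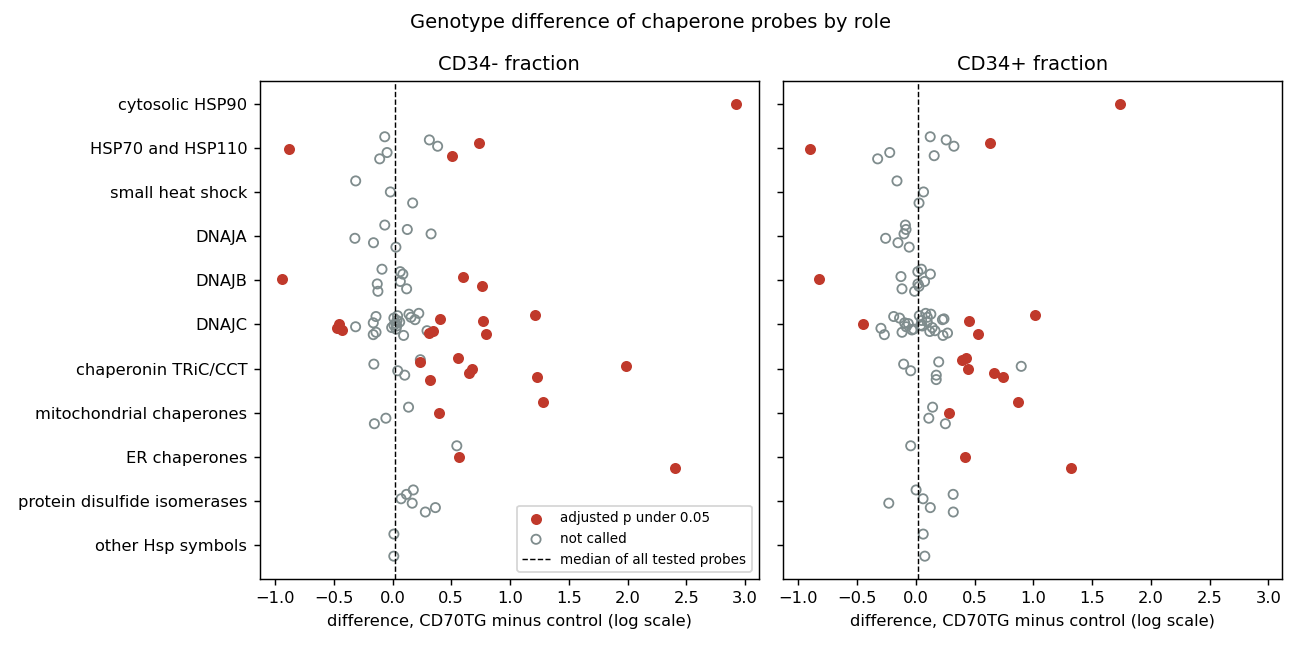
Each point is 1 chaperone probe above background, placed by its difference CD70TG minus control (horizontal axis, deposited log scale) in the CD34- fraction (left) and the CD34+ fraction (right), by role. Filled points passed an adjusted p of 0.05, and the dashed line is the median of all 15566 tested probes. Hsp90aa1 stands farthest to the right at 2.92 and 1.74. The rows of small heat shock genes, DNAJA, disulfide isomerases and other Hsp symbols hold no filled point.

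Hsp90aa1, the stress-inducible form of cytosolic HSP90, showed the largest difference. Its probe ILMN_2752883 read 12.32, 10.38, 11.75 and 11.54 on CD70TG CD34- arrays, against 8.09, 8.35, 9.74 and 8.12 on control CD34- arrays. The groups did not overlap, with CD70TG replicate 2 the lowest of its group and control replicate 3 the highest of its own. The difference was 2.92 ± 0.48, adjusted p = 0.000229. In CD34+ cells the values were 11.84, 10.85, 11.54 and 11.82 on CD70TG arrays and 9.91, 8.94, 8.98 and 11.29 on control arrays. Here control replicate 4 lay above CD70TG replicate 2, so the groups overlapped, and the difference was 1.74 ± 0.48, adjusted p = 0.018. That call ended when 1 of 4 arrays was left out: replicate 1 (1.63) or 4 (1.63) of CD70TG CD34+, or replicate 2 (1.46) or 3 (1.47) of control CD34+. With the index as a covariate the Hsp90aa1 difference was 0.17, not called, in CD34- and -0.19, also not called, in CD34+ cells. Within groups, 92.8% of the variance of this probe was shared with the index. A second Hsp90aa1 probe lay at background, and the constitutive form, Hsp90ab1, has no probe under that symbol in the values used here.

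Among ER chaperones, Hspa5 and Hsp90b1 rose in both fractions and Calr did not pass. Hspa5, which encodes BiP, the HSP70 of the ER, read 10.28, 8.87, 9.97 and 10.11 on CD70TG CD34- arrays, against 7.07, 7.03, 8.84 and 6.68 on control CD34- arrays. CD70TG replicate 2 lay just above control replicate 3 and the other arrays lay far apart, and the difference was 2.40 ± 0.43, adjusted p = 0.000465. In CD34+ cells Hspa5 read 10.39, 9.76, 10.52 and 10.25 on CD70TG arrays and 9.37, 8.36, 8.08 and 9.83 on control arrays, which overlap, with a difference of 1.32 ± 0.43, adjusted p = 0.0418. That call ended when 1 of 6 arrays was left out: replicate 1 (1.27), 3 (1.22) or 4 (1.31) of CD70TG CD34+, replicate 2 (1.14) or 3 (1.04) of control CD34+, or replicate 3 of CD70TG CD34- (1.32). With the index it was 0.27, adjusted p = 0.824, in CD34- and -0.18, adjusted p = 0.852, in CD34+ cells, and 70.5% of its within-group variance was shared with the index.

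Hsp90b1, which encodes GRP94, the HSP90 of the ER, rose without following the index. It read 12.68, 12.79, 12.58 and 12.53 on CD70TG CD34- arrays, against 12.14, 12.08, 12.19 and 11.91 on control CD34- arrays, without overlap. In CD34+ cells it read 12.74, 12.85, 12.91 and 12.44 on CD70TG arrays, against 12.31, 12.26, 12.28 and 12.41 on control arrays, again without overlap. The difference was 0.57 ± 0.10, adjusted p = 0.000618, in CD34- and 0.42 ± 0.10, adjusted p = 0.00936, in CD34+ cells. Within groups 1.38% of its variance was shared with the index, and with the index as a covariate it was 0.62, adjusted p = 0.0461, in CD34- and 0.46, adjusted p = 0.0592, in CD34+ cells.

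Calr and the disulfide isomerases of the ER did not pass between genotypes with all arrays in the fit. Calr, a calcium-binding lectin chaperone, averaged 8.61 ± 0.13 on CD70TG CD34- and 8.06 ± 0.74 on control CD34- arrays (SD, n = 4 each), and its difference of 0.55 ± 0.25 (adjusted p = 0.117) became 0.77 and 0.72, past the threshold, without control CD34- replicate 2 or 3. In CD34+ cells it was at -0.04. The probe of Canx, its membrane-bound relative, lay at background in all groups. The 6 probes of disulfide isomerases, from 4 genes, were all above 0 in CD34- cells, from 0.07 to 0.36, but 0 of them passed limma's test (1 at an unadjusted p under 0.05). Pdia3, the isomerase that works with calreticulin, was at 0.12, Pdia4 at 0.28 and Pdia6 at 0.17, with adjusted p of 0.506, 0.227 and 0.319. In CD34+ cells the 6 probes lay between -0.23 and 0.32 and 0 passed (1 at an unadjusted p under 0.05). There Pdia3 was at 0.32 (adjusted p = 0.0772) and passed at 0.40 without CD70TG CD34+ replicate 4, and Pdia4 was at 0.32 (adjusted p = 0.196) and passed at 0.46 without control CD34+ replicate 4. Dnajc3, which encodes the ER J-protein P58IPK, was at 0.01, adjusted p = 0.965. Dnajb9, the ER J-protein ERdj4, rose in CD34- cells by 0.60 ± 0.15 (adjusted p = 0.00527; 0.02, not called, with the index) and was at -0.13 in CD34+ cells (adjusted p = 0.602). That difference between the fractions, -0.73, was not called (adjusted p = 0.281, unadjusted p = 0.00242).

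Of 11 probes for the cytosolic chaperonin TRiC/CCT, 7 rose and 0 fell in CD34- cells, with a median of 0.32, and 5 rose and 0 fell in CD34+ cells, with a median of 0.39. Of all tested probes, 15.4% rose and 10.6% fell in CD34- cells, with a median of 0.02, and 6.93% rose and 9.14% fell in CD34+ cells, also with a median of 0.02. The largest difference was in Cct5, the epsilon subunit, which read 11.67, 10.58, 11.60 and 11.51 on CD70TG CD34- arrays, against 8.84, 8.94, 10.54 and 9.09 on control CD34- arrays. CD70TG replicate 2 was only just above control replicate 3, and the difference was 1.99 ± 0.37, adjusted p = 0.000696. In CD34+ cells Cct5 was at 0.90, adjusted p = 0.108, and it passed without control CD34- replicate 3 (0.90) or control CD34+ replicate 4 (1.25). With the index Cct5 was at 0.05, adjusted p = 0.97, in CD34- cells. Cct7, the eta subunit, rose by 1.23 ± 0.21 (adjusted p = 0.00031) in CD34- and by 0.74 ± 0.21 (adjusted p = 0.0197) in CD34+ cells, where the call ended without replicate 1 (0.63) or 4 (0.70) of CD70TG CD34+ or without replicate 2 (0.63) or 3 (0.62) of control CD34+. With the index it was 0.29 and 0.09, not called.

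Cct8, the theta subunit, rose in both fractions, and 29.6% of its within-group variance was shared with the index. It read 12.97, 12.67, 12.70 and 12.58 on CD70TG CD34- arrays, against 12.10, 12.06, 12.01 and 12.14 on control CD34- arrays, without overlap. In CD34+ cells it read 13.07, 13.10, 12.77 and 13.05 on CD70TG arrays, against 12.13, 12.05, 12.30 and 12.85 on control arrays. There control replicate 4 lay above CD70TG replicate 3, so the groups overlapped. The Cct8 difference was 0.65 in CD34- cells (adjusted p = 0.00226) and 0.67 in CD34+ cells (adjusted p = 0.00287), and with the index it was 0.24 and 0.38, not called. Tcp1, the alpha subunit, rose by 0.68 with its brighter probe in CD34- cells (adjusted p = 0.000409; 0.30, not called, with the index). In CD34+ cells it rose by 0.44 with that probe. This call ended (0.37 to 0.40) without replicate 4 of CD70TG CD34+ or replicate 2 or 3 of control CD34+. Its dimmer probe, which lay above background on 1 of 4 control CD34- arrays, rose by 0.23 (adjusted p = 0.048), a size cut off by the background, and the dimmer probe's call ended (0.18 to 0.24) in 11 of 16 fits with 1 array left out, all but those without replicate 2 or 4 of CD70TG CD34-, 2 of control CD34-, 4 of CD70TG CD34+ or 4 of control CD34+. Cct6a, a zeta subunit, rose by 0.56 and 0.43 in CD34- and CD34+ cells (adjusted p = 0.00535 and 0.0386), and the CD34+ call ended (0.35 to 0.46) without any 1 of the CD34+ arrays other than control replicate 4. With the index Cct6a was at 0.29 and 0.24, not called. Cct2, the beta subunit, rose by 0.32 in CD34- cells (adjusted p = 0.013; not called without CD70TG CD34- replicate 1, 0.24, or with the index, 0.01), with 2 of 4 control CD34- arrays above background, and was at 0.17 in CD34+ cells (adjusted p = 0.204). Cct3, the gamma subunit, rose in CD34+ cells with its brighter probe (0.39, adjusted p = 0.0203; not called, at 0.32 to 0.38, with 1 of 4 CD34+ arrays left out: replicate 1 or 3 of CD70TG, or replicate 2 or 3 of control, or at 0.26 with the index), and was at 0.24 in CD34- cells (adjusted p = 0.128). Cct4, the delta subunit, was at 0.04 and -0.04, and Cct6b, the second zeta form, known from testis, at -0.16 and -0.10, none of them called.

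**Figure D2:**
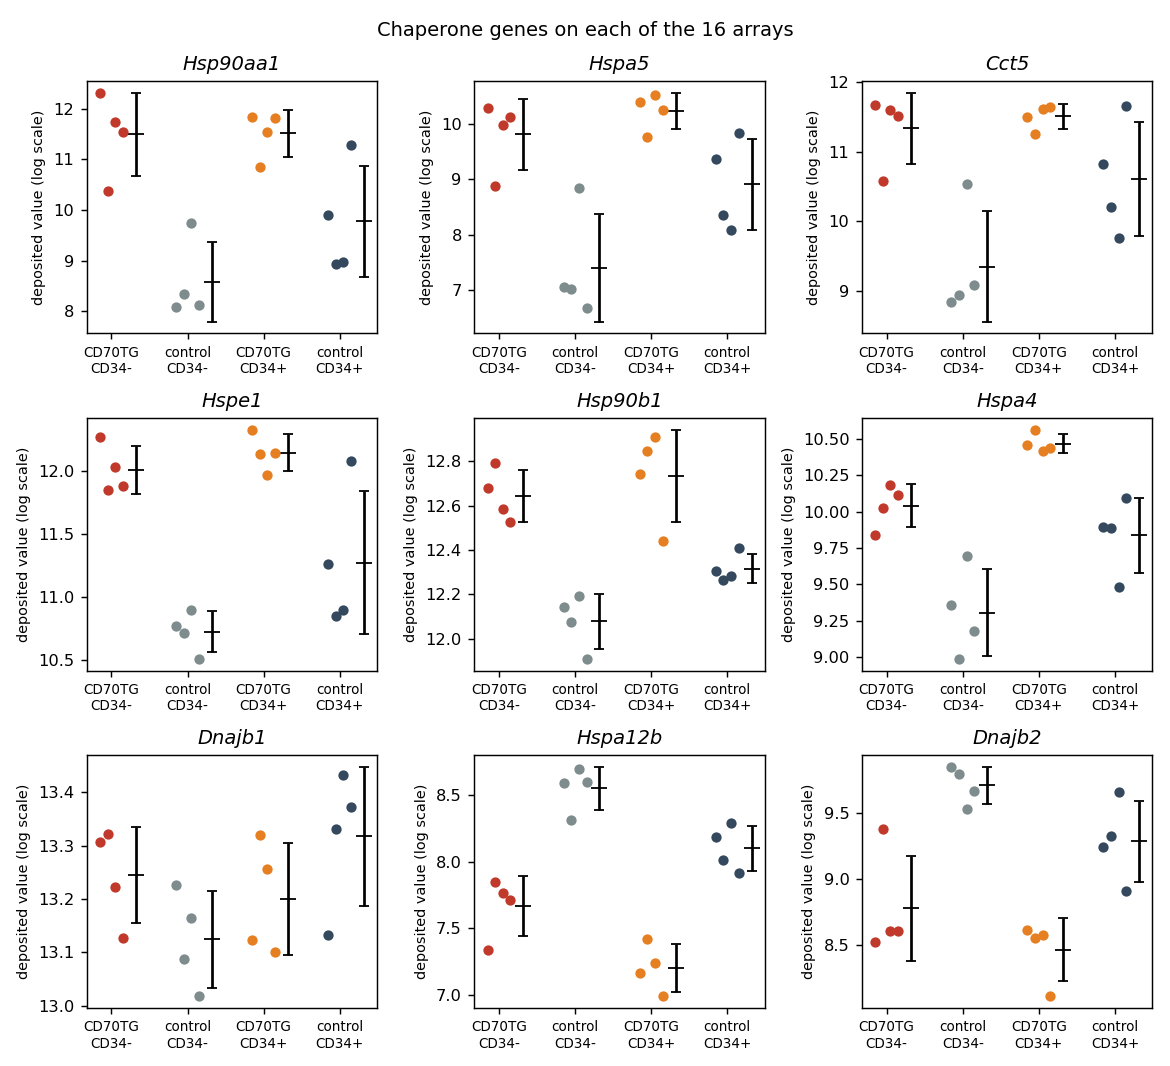
Deposited values (vertical axes, log scale, a separate range for each gene) of 9 chaperone genes on the 16 arrays, with each dot 1 array and the bar the mean ± SD of 4 arrays, in the order CD70TG CD34-, control CD34-, CD70TG CD34+ and control CD34+. Hsp90aa1, Hspa5 and Cct5 share a low CD70TG CD34- replicate 2, a high control CD34- replicate 3 and a high control CD34+ replicate 4. Hsp90b1, Hspa4, Hspa12b and Dnajb2 separate the genotypes in both fractions, Hsp90b1 by a narrow gap in CD34+ cells (12.44 against 12.41).

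In mitochondria, the chaperonin pair rose, Hspd1 with its brighter probe alone, and mortalin did not pass. Hspe1, the HSP10 lid, read 12.27, 11.85, 12.03 and 11.88 on CD70TG CD34- arrays, against 10.77, 10.72, 10.90 and 10.51 on control CD34- arrays. In CD34+ cells it read 12.33, 12.14, 11.97 and 12.14 on CD70TG arrays, against 11.26, 10.85, 10.90 and 12.08 on control arrays. The CD34- groups lay apart, and control CD34+ replicate 4 reached into the CD70TG range. The differences were 1.28 ± 0.20 (adjusted p = 0.000122) in CD34- and 0.87 ± 0.20 (adjusted p = 0.00479) in CD34+ cells, and with the index 0.42 and 0.27, not called. Hspd1, the HSP60 ring subunit that shares Hspe1's promoter region, rose by 0.40 ± 0.09 (adjusted p = 0.00213) and 0.28 ± 0.09 (adjusted p = 0.029) with its bright probe, the second call ending (0.25 to 0.29) when replicate 1, 2 or 3 of either CD34+ group was left out. With the index Hspd1 was at 0.29 and 0.21, not called. Its dim probe was at -0.06 and 0.11, and in CD34- cells the 2 probes differed from each other (adjusted p = 0.034, limma). Hspa9, the mitochondrial HSP70 mortalin, was at 0.14 in both fractions with its brighter probe and at -0.15 and 0.25 with the other, none of them called.

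Of 8 probes for cytosolic HSP70 and HSP110 genes, 2 rose and 1 fell in CD34- cells (37.5%, against 25.9% of all tested probes), and 1 rose and 1 fell in CD34+ cells (25%, against 16.1%). Hspa4, an HSP110-type nucleotide exchange factor, read 9.84, 10.03, 10.18 and 10.11 on CD70TG CD34- arrays, against 9.36, 8.99, 9.70 and 9.18 on control CD34- arrays. The groups did not overlap, nor did they in CD34+ cells, and the differences were 0.73 ± 0.15 (adjusted p = 0.0012) and 0.63 ± 0.15 (adjusted p = 0.00594), or 0.42 and 0.41, not called, with the index. Hspa4l, its close relative, rose by 0.50 in CD34- cells (adjusted p = 0.00451; 0.02, not called, with the index) and was at 0.16 in CD34+ cells (adjusted p = 0.406). Hspa8, the constitutive HSC70, was at -0.05 with its bright probe and 0.31 with its dim probe in CD34- cells (adjusted p = 0.793 and 0.391). The dim probe was at 0.63, past the threshold, without control CD34- replicate 2. Hsph1, an HSP110 induced by heat shock, was at 0.38 (adjusted p = 0.235), and Hspa1a, the inducible HSP70, lay at background, while Hspa1b has no probe under that symbol in the values used here.

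Hspa12b, a distant relative of HSP70 known from endothelial cells, fell in both fractions. It read 7.34, 7.85, 7.76 and 7.71 on CD70TG CD34- arrays, against 8.59, 8.32, 8.70 and 8.60 on control CD34- arrays. In CD34+ cells it read 7.16, 7.42, 7.24 and 6.99 on CD70TG arrays, against 8.18, 8.01, 8.29 and 7.92 on control arrays. In both fractions every CD70TG array lay below every control array. The differences were -0.88 ± 0.13 (adjusted p = 8.1e-05) and -0.90 ± 0.13 (adjusted p = 8.82e-05), and with the index -0.56 (adjusted p = 0.145) and -0.67 (adjusted p = 0.0144). Markers of endothelial cells were not examined.

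J-domain proteins are the largest set, and their calls in CD34- cells came in about the array-wide share. In CD34- cells, where 25.9% of all tested probes were called, 2 of 10 DNAJB probes rose and 1 fell, 6 of 29 DNAJC probes rose and 3 fell, and 0 of 6 DNAJA probes passed limma's test (2 at an unadjusted p under 0.05). That is 30% of DNAJB and 31% of DNAJC probes. In CD34+ cells, where 16.1% of all were called, 0 DNAJB probes rose and 1 fell, 3 DNAJC probes rose and 1 fell, and 0 DNAJA probes passed (0 at an unadjusted p under 0.05), which is 10% of DNAJB and 13.8% of DNAJC probes. Dnajc6, which encodes auxilin, the J-protein that uncoats clathrin vesicles, rose with both probes, by 0.80 and 0.77 in CD34- and by 0.53 and 0.45 in CD34+ cells, with adjusted p from 6.69e-05 to 0.00958. With the index its probes were at 0.53 and 0.59 in CD34- and at 0.34 and 0.32 in CD34+ cells, not called. Dnajb2, a J-protein known from neurons, fell: it read 8.52, 9.38, 8.60 and 8.60 on CD70TG CD34- arrays, against 9.85, 9.80, 9.53 and 9.67 on control CD34- arrays. CD70TG replicate 2 stood close to the control arrays, and the differences were -0.94 ± 0.18 (adjusted p = 0.00108) in CD34- and -0.82 ± 0.18 (adjusted p = 0.00444) in CD34+ cells. With the index they were -0.09 and -0.23, not called.

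Dnajc4 fell by 0.46 in CD34- cells (adjusted p = 0.00594) and by 0.45 in CD34+ cells (adjusted p = 0.0103), and was at -0.15 and -0.24, not called, with the index. Dnajc30, which lies in the inner membrane of mitochondria, fell by 0.43 in CD34- cells with its brighter probe (adjusted p = 0.0413), a call that ended (-0.34 to -0.47) in 9 of 16 fits with 1 array left out: replicate 1, 3 or 4 of CD70TG CD34-, replicate 1, 2 or 4 of control CD34-, replicate 3 or 4 of CD70TG CD34+, or replicate 1 of control CD34+. With the index Dnajc30 was at 0.21, not called. Dnajb4 rose by 0.76 in CD34- cells (adjusted p = 0.00894; -0.22, not called, with the index) and was at 0.03 in CD34+ cells. The heat-inducible Dnajb1, the main HSP40 of the cytosol, read 13.31, 13.32, 13.22 and 13.13 on CD70TG CD34- arrays, against 13.23, 13.09, 13.17 and 13.02 on control CD34- arrays. Those ranges overlap, and the difference was 0.12 ± 0.09, adjusted p = 0.336. Dnaja1, another HSP40, was at 0.13 (adjusted p = 0.254), and the 3 probes of small heat shock proteins, Hspb1, Hspb2 and Hspb6, were at -0.02, 0.17 and -0.31, with 0 called in either fraction (0 at an unadjusted p under 0.05).

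In the CD34+ fraction fewer chaperone probes passed between genotypes. Of 84 probes, 14 rose, 3 fell and 67 did not pass, which is 20.2% against 16.1% of all tested probes. By direction, 6.93% of all tested probes were called higher and 9.14% lower. The median difference was 0.07, against 0.02 over all tested probes. The count was 10 without replicate 1 of CD70TG CD34+ (10.3% of all tested probes called), 9 without replicate 2 of control CD34+ (11.1%), 9 without replicate 3 of it (10.9%) and 23 without its replicate 4 (21.1%). The genotype effect was compared between fractions with an interaction term in limma, which called 0 of 84 probes (4 at an unadjusted p under 0.05), against 0.289% of all tested probes. Hsp90aa1 and Cct5, with interaction values of -1.19 and -1.09, were not called (adjusted p = 0.803 and 0.741).

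**Figure D3:**
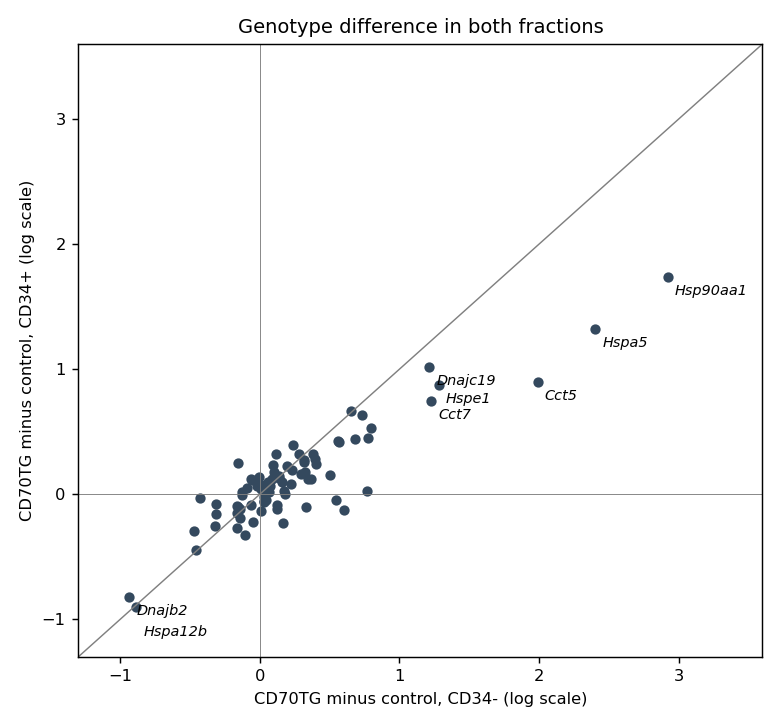
Each point is 1 of the 84 chaperone probes, with its difference CD70TG minus control in the CD34- fraction (horizontal axis) and in the CD34+ fraction (vertical axis), both on the deposited log scale, and the diagonal marks equal differences. Hsp90aa1 (2.92 and 1.74), Hspa5 (2.40 and 1.32) and Cct5 (1.99 and 0.90) lie below the diagonal, and Hspa12b (-0.88 and -0.90) lies on it.

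Few chaperone probes were called once the index entered the fit. In CD34- cells 2 probes were called, which is 2.38% against 4.72% of all tested probes. They are Hsp90b1 and Dnajc27, a small GTPase with a J domain (-0.80, adjusted p = 0.0124, against -0.31 and adjusted p = 0.0909 without the index). In CD34+ cells 3 were called, all lower in CD70TG cells (3.57%, against 6.72% of all), namely Hspa12b, Dnajb4 (-0.66, adjusted p = 0.0187) and Dnajb9 (-0.53, adjusted p = 0.0454). Of the 27 probes called in CD34- cells without the index, 22 kept their direction with it and 1, Hsp90b1, its call. Their median size was 0.22 with the index, against 0.65 without, and their median SE 0.19, against 0.13. Of the 17 called in CD34+ cells, 14 kept their direction and 1, Hspa12b, its call.

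Several probes with large genotype differences also followed the index within groups, and others did not. The index shared 95.2% of the within-group variance of 1 Dnajc19 probe, 92.8% for Hsp90aa1, 77.3% for Cct5, 71.0% for Dnajb2, whose slope was negative, 70.5% for Hspa5 and 60.6% for Hspe1, against 1.38% for Hsp90b1, 17.6% for Hspa4 and 25.9% for Hspa12b. Over all 84 chaperone probes the median share was 13.8%, against 9.87% over all tested probes, and 15 of 84 (17.9%) had more than 50% in common with it, against 11.4% of all. Chaperone genes took no part in making the index. Because the index itself differed between genotypes, a fit that holds it constant also holds constant any genotype effect that runs along it, and the parts of each cannot be told apart.

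**Figure D4:**
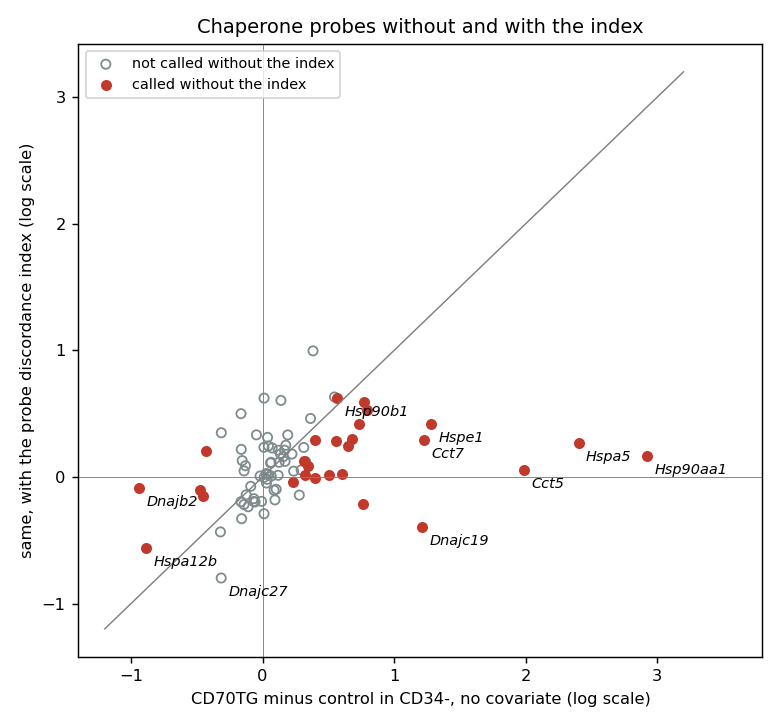
Each point is 1 of the 84 chaperone probes, with its CD70TG minus control difference in the CD34- fraction without a covariate (horizontal axis) and with the index added to the fit (vertical axis), both on the deposited log scale. On the diagonal both are equal; Hsp90b1 lies close to it (0.57 and 0.62), while Hsp90aa1 (2.92 and 0.17), Hspa5 (2.40 and 0.27) and Cct5 (1.99 and 0.05) lie near 0 on the vertical axis.

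Probes of the same chaperone gene were compared directly where a gene had at least 2 above background, which 17 genes did. In CD34- cells the genotype difference differed between the brightest probe and the next one in 4 of 17 genes (23.5%), against 20% of 2685 genes, and in CD34+ cells in 0 of 17 (3 at an unadjusted p under 0.05), against 4.99%. For Dnajc16 the probes were called in opposite directions. Its brighter probe read 9.03, 9.37, 8.99 and 9.27 on CD70TG CD34- arrays, against 9.78, 9.54, 9.59 and 9.64 on control CD34- arrays. Its dimmer probe read 7.56, 7.39, 7.56 and 7.57 on CD70TG CD34- arrays, against 7.11, 7.12, 7.30 and 7.17 on control CD34- arrays. Neither pair of groups overlapped, and the differences were -0.47 (adjusted p = 0.00786) and 0.35 (adjusted p = 0.0097), which differ from each other by -0.82 ± 0.15 (adjusted p = 0.0018). With the index they were -0.11 and 0.09, not called. Both probes carry the same transcript accession in the platform annotation, so no direction is given for this gene.

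The others past the threshold were Hspd1 (0.45 ± 0.14 higher with the brighter probe, adjusted p = 0.034), Dnaja2 (0.39 ± 0.13, adjusted p = 0.0362) and Tcp1 (0.45 ± 0.13, adjusted p = 0.0207). For Tcp1 the dimmer probe lay above background on 1 of 4 control CD34- arrays, so that its difference is cut off there and the comparison does not show that its probes disagree. Dnajc19, the J-protein of the mitochondrial import motor, had 3 probes above background, with unequal differences. Probe ILMN_3068630 read 7.99, 6.76, 7.82 and 7.72 on CD70TG CD34- arrays, against 6.08, 6.44, 6.73 and 6.18 on control CD34- arrays, a rise of 1.22 ± 0.28 (adjusted p = 0.00348). It lay above background on 1 of 4 control CD34- and 3 of 4 control CD34+ arrays, so its size is cut off by the background. The brightest probe, ILMN_3103439, was at 0.14 and the dimmest, ILMN_3030148, at -0.14, neither called. In CD34+ cells the first probe rose as well (adjusted p = 0.0178), a call that ended when 1 of 4 CD34+ arrays was left out (0.85 to 0.97), namely replicates 1 and 4 of CD70TG and 2 and 3 of control. The direct comparison of the rising probe with the brightest one gave adjusted p = 0.0527, and no test was run on the dimmest. With the index the rising probe was at -0.39, adjusted p = 0.181. The annotation gives these probes different accessions. For Dnajc6, both probes gave nearly the same difference (0.80 and 0.77).

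**Figure D5:**
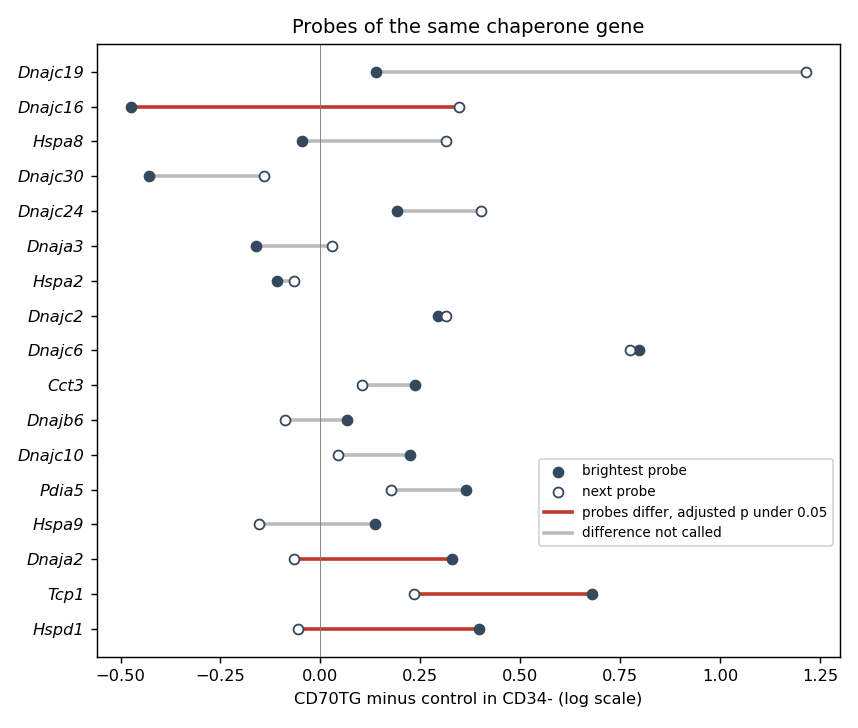
For each of the 17 chaperone genes with at least 2 probes above background, the filled point is the CD70TG minus control difference of the brightest probe and the open point that of the next probe, in the CD34- fraction (horizontal axis, deposited log scale). Red lines join probes whose difference from each other passed an adjusted p of 0.05, as for Dnajc16 (-0.47 and 0.35), Hspd1, Dnaja2 and Tcp1, whose next probe lay above background on 1 of 4 control arrays.

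Between fractions, few chaperone probes differed. In control mice 5 of 84 were higher and 2 lower in CD34+ than in CD34- cells (8.33%, against 7.15% of all tested probes, of which 3.41% were higher and 3.74% lower). Higher were Hspa5 (1.5, adjusted p = 0.0395), Cct5 (1.26, adjusted p = 0.0459), 1 probe of Dnaja2 (0.56, adjusted p = 0.0314), 1 probe of Dnajc2, a ribosome-associated J-protein (0.54, adjusted p = 0.0171), and Hspa4 (0.53, adjusted p = 0.0327). Lower were Hspa12b (-0.45, adjusted p = 0.0437) and 1 probe of Dnajb6 (-0.34, adjusted p = 0.0253). With the index these genes were not called, with Hspa5 at 0.64 (adjusted p = 0.176), Cct5 at 0.48 (adjusted p = 0.202) and Hspa12b at -0.32 (adjusted p = 0.19). The Cct5 call ended (0.91 to 1.26) in 11 of 16 fits with 1 array left out, all but those without replicate 1 or 2 of CD70TG CD34-, 3 of control CD34- or 2 or 3 of control CD34+. The Hspa5 call ended (1.2 to 1.5) in 9 of 16, those without replicate 3 of CD70TG CD34-, 1, 2 or 4 of control CD34-, 1, 3 or 4 of CD70TG CD34+, or 1 or 4 of control CD34+. The other calls ended in 10 such fits for Hspa12b, 6 for Hspa4, 5 for Dnaja2, 3 for Dnajc2 and 2 for Dnajb6. The count of calls also depended on single arrays. It came to 1 without replicate 1 (4.96% of all tested probes) or 4 (4.5%) of control CD34+ or replicate 1 of control CD34- (5.26%). It came to 2 without control CD34- replicate 2 (6.02%) or 4 (4.52%). Without replicate 1 (6.14%) or 3 (6.16%) of CD70TG CD34+ or replicate 3 of CD70TG CD34- (6.1%) it came to 4. Without control CD34- replicate 3 it came to 11 (8.85%). In CD70TG mice Hspa12b alone was called, lower in CD34+ than in CD34- cells (-0.46, adjusted p = 0.0451), which is 1.19% of 84 probes against 5.05% of all, or 3.68% of all for lower calls. That call ended (-0.39 to -0.48) when any of 10 arrays was left out: replicates 2, 3 and 4 of CD70TG CD34-, 1 and 4 of control CD34-, 1, 3 and 4 of CD70TG CD34+, and 1 and 2 of control CD34+. The fraction and the genotype comparisons share arrays.

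Partners of the chaperones, from a list of 40 co-chaperones and stress factors with 33 tested, gave 9 higher and 2 lower genes between genotypes in CD34- cells and 5 higher and 1 lower in CD34+ cells, 33.3% and 18.2% against 27.3% and 17.5% of all genes (15.7% higher and 11.6% lower in CD34-, 7.23% higher and 10.3% lower in CD34+ cells). Ptges3, the HSP90 co-chaperone p23, rose by 1.45 and 1.05 (adjusted p = 0.000861 and 0.0141), and Grpel1, the nucleotide exchange factor of mitochondrial HSP70, by 0.76 and 0.63 (adjusted p = 0.000157 and 0.00132). St13, the HSP70-interacting protein Hip, rose by 1.03 and 0.44 (adjusted p = 5.31e-05 and 0.0453). In CD34+ cells the St13 call ended (0.38 to 0.48) in 11 of 16 fits with 1 array left out, all but those without replicate 1 or 2 of CD70TG CD34-, 3 or 4 of control CD34- or 4 of control CD34+, and the Ptges3 call ended (0.90 to 0.94) without replicate 1, 2 or 3 of control CD34+. Vbp1, a prefoldin subunit that hands clients to TRiC, and Hsf2, a heat shock factor, rose in CD34- cells by 0.95 and 0.84. Tomm34 and Unc45a, both HSP90 co-chaperones, were the 2 that fell there (-0.49 and -0.35), and the Unc45a call ended (-0.23 to -0.36) in 12 of 16 such fits, all but those without replicate 2 of CD70TG CD34-, 2 or 3 of control CD34- or 4 of control CD34+. With the index as a covariate none of these was called: in CD34- and CD34+ cells Ptges3 was at 0.19 and 0.16, Grpel1 at 0.45 and 0.41 and St13 at 0.60 and 0.14, and in CD34- cells Vbp1 was at -0.08, Hsf2 at -0.29, Tomm34 at -0.24 and Unc45a at -0.07. With it Nudc, an HSP90-binding protein, was called in CD34- cells (0.53, adjusted p = 0.0423), and Nudc and Fkbp4, an immunophilin, in CD34+ cells (0.49 and 0.62).

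Genes of the unfolded protein response and ER folding, 33 tested of 45 listed, gave 6 higher and 4 lower in CD34- cells and 7 higher and 4 lower in CD34+ cells, 30.3% and 33.3% against 27.3% and 17.5% of all genes. The median difference over the list was 0.01 in CD34- and -0.01 in CD34+ cells, against 0.02 over all genes in both. Among those not called in either fraction were Xbp1 (0.01 and -0.23), Atf4 (0.02 and 0.13) and Herpud1 (-0.02 and -0.16). Erp44, an ER thioredoxin, rose by 1.04 and 0.60, Derl2, which helps move misfolded proteins out of the ER, by 0.67 and 0.52. Manf, an ER stress protein, was called higher in both fractions, with means of 6.56 on CD70TG CD34- and 6.13 on control CD34- arrays, but it was not above background on any of the 4 control CD34- arrays and on 2 of 4 control CD34+ arrays, so no size is given. Eif2ak3, the ER stress kinase PERK, rose by 0.57 in CD34- cells. Ddit3, the stress factor CHOP, fell by 0.63 and 0.71, and Ppp1r15a, the phosphatase subunit GADD34 that restores translation, fell by 1.11 and 0.78. Of these, 3 calls in CD34+ cells ended when 1 array was left out. That of Erp44 did (0.50 to 0.63) without replicate 1, 3 or 4 of CD70TG or 1, 2 or 3 of control, that of Manf without replicate 1 of CD70TG or 2 of control, and that of Ppp1r15a (-0.65 to -0.72) without replicate 1 or 4 of CD70TG or 1 or 3 of control. With the index as a covariate none of these was called: in CD34- and CD34+ cells Erp44 was at 0.17 and -0.0047, Derl2 at 0.65 and 0.51 (adjusted p = 0.0575 and 0.0552), Ddit3 at -0.26 and -0.45 and Ppp1r15a at -0.36 and -0.25, and Eif2ak3 was at 0.32 in CD34- cells. With it Erp29, an ER chaperone of secretory proteins (0.61, adjusted p = 0.0127), and Ppp1r15b, the constitutive partner of the same phosphatase (0.73, adjusted p = 0.0158), were called in CD34- cells, and Erp29 and Fkbp2 in CD34+ cells (0.64 and 0.70), and no other tested gene of this list was. In CD34+ cells Erp29 (0.35, adjusted p = 0.0349) and Fkbp2 (0.65, adjusted p = 0.00356) were called without the index as well. That Erp29 call ended in 6 of 16 fits with 1 array left out. In CD34- cells Fkbp2 was called without the index (0.59, adjusted p = 0.00469) and not with it (0.66, adjusted p = 0.146).

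Markers of other cell types moved with genotype beside the chaperones. Of all genes tested, 27.3% were called in CD34- cells (15.7% higher and 11.6% lower). In CD34+ cells 17.5% were called (7.23% higher and 10.3% lower). The counts that follow stand beside those shares, and in a short list 1 gene of 4 is already 25%. In CD34- cells 10 of 10 tested macrophage markers were higher, with a mean level of 8.98 to 9.34 on CD70TG and 7.55 to 7.72 on control arrays. There 9 of 9 tested cycling-cell markers were higher too. With Bub1, which lay at background, the 10 cycling-cell genes had a mean level of 9.80 to 10.06 on CD70TG and 8.49 to 8.60 on control arrays. Granule markers of myeloid progenitors were higher at 5 of 5 (11.43 to 12.02 on CD70TG and 9.23 to 9.84 on control arrays), neutrophil markers at 5 of 9 (10.71 to 11.69 on CD70TG and 10.39 to 10.97 on control arrays) and mast cell and basophil markers at 5 of 6 (9.46 to 9.67 on CD70TG and 8.29 to 8.61 on control arrays). Long-term HSC markers were lower at 8 of 12 (8.03 to 8.08 on CD70TG and 8.81 to 8.97 on control arrays) and plasma and B cell markers at 4 of 7 (6.73 to 6.86 on CD70TG and 7.04 to 7.13 on control arrays, with Pax5 and Prdm1 at background). Erythroid markers gave 0 calls of 4 (8.202 to 9.27 on CD70TG and 8.68 to 9.71 on control arrays), and T and NK markers 1 of 4, higher (7.09 to 7.24 on CD70TG and 7.02 to 7.13 on control arrays), with Cd3g and Cd8a at background. In CD34+ cells 3 of 10 macrophage markers were higher, with a mean level of 6.996 to 7.30 on CD70TG and 6.82 to 6.88 on control arrays. So were 9 of 9 tested cycling-cell markers (10.04 to 10.17 on CD70TG and 8.64 to 8.83 on control arrays, Bub1 again included in the level). Granule markers were higher there at 5 of 5 (11.21 to 11.75 on CD70TG and 9.43 to 9.61 on control arrays), neutrophil markers at 3 of 9 (9.72 to 10.33 on CD70TG and 9.33 to 9.75 on control arrays) and mast cell and basophil markers at 4 of 6, with 1 lower (9.85 to 10.05 on CD70TG and 8.85 to 9.19 on control arrays). HSC markers were lower at 8 of 12 (7.78 to 7.87 on CD70TG and 8.74 to 8.79 on control arrays) and plasma and B cell markers at 2 of 7 (6.67 to 6.71 on CD70TG and 6.78 to 7.24 on control arrays). Erythroid markers gave 0 calls of 4, and 1 of 4 T and NK markers was lower, at mean levels that overlapped between genotypes for both lists. The part of these markers in the chaperone differences was not tested.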

How the data were processed

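RNA of 16 sorted cell pools was hybridised to Illumina mouse bead arrays. The deposited values are log2-like. Their similar array medians are those of values already on a common scale, and no source used here states the authors' log base, background correction or normalization. A further 32 columns that match no sample label were not used. Symbols are those of the platform annotation, brought up to date by gene number for 23962 of 25697 probes, and 1719 probes had none. Probes had to lie above an array's background limit on at least 4 arrays. That limit was the peak of the array's values plus 1.64 times the spread of the values below the peak. The remaining 15566 probes were fitted with limma 3.58.1 in R 4.3.3 (lmFit and eBayes, 12 residual degrees of freedom), with Benjamini-Hochberg adjustment at 0.05. Python 3.11.15 with pandas 2.3.3 and matplotlib 3.10.9 drew figures and searched promoters. On simulated data for the CD34- genotype comparison over 15566 probes, 55% of 100 probes changed by 0.5 and 96% of 100 changed by 1 were recovered, with 2 false calls. The noise was drawn for each probe on its own, without the pattern between arrays that the index describes. These figures therefore do not cover calls that arise from that pattern.

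Members and lists were chosen with earlier results of these data known. With values the text names up to 8 called member probes in each direction of a comparison with the largest differences, genes whose probes disagree, a set of major chaperones by role, and up to 4 list genes with the smallest p. Any other gene was named after its values were seen. The direct test between probes of a gene was added after seeing the data. Alternatives were the filter, the brightest probe of a gene, the arrays fitted, array weights, a minimum fold of 1.2, the normalization, the replicate block, the probe discordance index and arrays left out. The number of arrays limits the precision.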

Additional observations from a re-analysis of the deposited data

Results flagged for a closer look

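In 13 of 168 groups of 4 arrays, taken over 41 named probes and the index (7.74%), 1 array stood far from the other 3. Chance flags about 1 in 20 groups by this measure. CD70TG CD34- replicate 2 was the array for 4 of them. There Cct5 was low at 10.58, with the nearest array at 11.51, and the dimmer Dnajc16 probe was low at 7.387, with the nearest at 7.557. Dnajb2 was high at 9.376, with the nearest at 8.603, and the bright Hspa8 probe was high at 15.69, with the nearest at 15.36. Control CD34- replicate 3 was high for Hsp90aa1 (9.741, nearest 8.35) and for Cct5 (10.54, nearest 9.088). In CD70TG CD34- replicate 1, the dimmer Cct3 probe was high at 9.536 and Pdia3 at 11.16. In CD70TG CD34+ arrays, Dnajb2 was low in replicate 4 at 8.106, Cct8 was low in replicate 3 at 12.77, and the dimmest Dnajc19 probe was high in replicate 3 at 6.701. In control CD34+ arrays, Hsph1 was high in replicate 3 at 12.14 and the bright Hspd1 probe was high in replicate 4 at 12.76.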

How the results depend on the processing

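Called chaperone probes numbered 27 (CD34-) and 17 (CD34+) for genotype, and 7 (control) and 1 (CD70TG) for fraction. In that order 25.9%, 16.1%, 7.15% and 5.05% of all tested probes were called. With the index in the fit the chaperone counts were 2, 3, 2 and 2, against 4.72%, 6.72%, 5.36% and 6.64% of all. With a minimum fold of 1.2 they were 12, 1, 0 and 0, against 7.86%, 3.77%, 1.46% and 1.99% of all. The control fraction count was 1 with only the arrays compared (3.38% of all tested probes), 2 with array weights (5.77%) and 1 without both arrays that stood apart (5.22%). The CD70TG fraction count was 3 with only the arrays compared (5.78% of all tested probes) or with array weights (9.84%). It was 0 with no filter (2.87%), quantile normalization (4.82%), equal array medians (4.63%) or without both arrays that stood apart (4.68%). Leaving out 1 array at a time gave 23 to 29 and 9 to 23 between genotypes, 1 to 11 and 0 to 1 between fractions, and 0 to 0 for the interaction. For genotype in CD34- cells, the count of 23 came without CD70TG CD34- replicate 1 (19.3% of all tested probes). The count of 29 came without control CD34- replicate 3 (24.9%).

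With the index, called differences of these genes changed sign: Dnajc19 probe ILMN_3068630 to -0.39 in CD34- and -0.11 in CD34+ cells, Dnajc30 to 0.21, Dnajc24 probe ILMN_2839310 to -0.0053, the dimmer Tcp1 probe to -0.041, Dnajb4 to -0.22, Vbp1 to -0.076 and Hsf2 to -0.29 in CD34- cells, and Hsp90aa1 to -0.19, Hspa5 to -0.18 and Erp44 to -0.0047 in CD34+ cells. Dnajb4, not called in CD34+ cells, came to -0.66 there. The Dnajc24 probe was not above background on any control CD34- array, so the size of its rise is cut off. Its brighter probe, ILMN_2839303, was at 0.19 in CD34- cells without the index. Under both scaling alternatives and every array left out, 0 changed sign.

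The labels do not say whether a replicate number marks a shared litter, day or batch. Within-group deviations of same-numbered arrays correlated at -0.308 to 0.647, and at most 2 of 4 arrays correlated best with their own number. With 4 arrays per group these correlations cannot show whether the numbers pair the arrays. With a replicate block the counts were 28, 18, 7, 1 and 0, against 26.6%, 18.3%, 7.93%, 5.27% and 0.308% of all tested probes. With the replicate block and the index together the counts were 0, 1, 0 and 2, against 1.85%, 3.83%, 3.85% and 6.76%. There Hsp90aa1 was at -0.11 in CD34- and -0.39 in CD34+ cells, Cct5 at -0.25, Dnajc19 at -0.50 and -0.19, the brighter Dnajc16 probe at 0.085, Dnajc4 at 0.17, the dimmer Tcp1 probe at -0.098, and Hspa5 in CD34+ cells at -0.36. Also there Hspa4l was at -0.062, Unc45a at 0.13 and Hsf2 at -0.61 in CD34- cells, and in CD34- and CD34+ cells Dnajb4 was at -0.37 and -0.767, Ptges3 at -0.059 and -0.00764, and Ppp1r15a at 0.48 and 0.34. The cause of these changes was not tested.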
